A study of Homo sapiens with 9 samples.

Results

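The genes of the proteasome were followed in H1299 cells, a human lung cancer line, after depletion of FIBP, the intracellular protein that binds acidic fibroblast growth factor. Every gene whose symbol consists of PSMA, PSMB, PSMC, PSMD, PSME, PSMF or PSMG and a number was taken as a member, which gave 48 of the 60966 genes listed. 47 of the 48 members were at 1 FPKM or more in at least 3 of the 9 samples and were tested. The remaining one was PSMB11, the catalytic subunit of the thymus form, which was at 0 FPKM in 7 samples and at 0.03 FPKM in the others.

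The groups were H1299 cells that received Scramble siRNA, the control, H1299 cells that received Si-FIBP#1, and H1299 cells that received Si-FIBP#2. Each group held 3 samples, and the Scramble samples share the transfection with the others but not the depletion. The study's methods give harvest 48 h after siRNA transfection, and state in general that experiments were done repeatedly and independently, without saying so of these sequenced samples. Poly(A) RNA was sequenced to an estimated 20000000 to 23850000 fragments per sample, and levels are given as FPKM, fragments scaled to transcript length and library size. FIBP stood at 88.4, 79.5 and 77.7 FPKM in Scramble, at 7.49, 7.77 and 4.30 FPKM after Si-FIBP#1, and at 7.13, 5.92 and 8.21 FPKM after Si-FIBP#2, so the targeted gene was low in all 6 depleted samples.

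VIM was at 1592 to 3369 FPKM and KRT18 at 143 to 483 FPKM in the 9 samples, both falling with each siRNA (limma, adjusted p at most 0.00512). The 15 markers of leukocytes, fibroblasts, endothelium and alveolar epithelium stayed at or under 1.59 FPKM, and 2 of them were at 0 throughout. The summed fibroblast markers were at 0.22 to 0.54 FPKM in Scramble, 0.84 to 1.78 FPKM after Si-FIBP#1 and 1.12 to 3.11 FPKM after Si-FIBP#2, whose part in the results was not tested. In Si-FIBP#2 replicate 2, 32 of the 47 tested members were at the highest level of their group, while Si-FIBP#1 replicate 1 was the lowest of its group for 31 and Si-FIBP#2 replicate 1 for 29. Ranks over all genes were not counted. The scaling factor of Si-FIBP#2 replicate 2, by the median ratio of its genes, was 1.051, against 1.025 and 1.027 in its group. Calls of members after Si-FIBP#2 that change without its replicate 2 are given with both values. As most members were highest in that library, its removal lowers their mean after Si-FIBP#2 by construction. Lower calls gained in this way are therefore no separate support for a fall.

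The proteasome is the protease that degrades ubiquitin-tagged proteins. Its barrel-shaped core is built of outer rings of alpha subunits, which form the gate, and inner rings of beta subunits, which hold the catalytic sites. A regulatory particle of ATPases and non-ATPases caps the core, where it recognizes, unfolds and feeds in the substrate. Interferon-gamma is known to exchange the constitutive catalytic subunits for those of the immunoproteasome, which favours the cutting of peptides for antigen presentation, and the transcription factor NFE2L1 is known to raise subunit genes when proteasome activity is limiting.

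Upstream sequences are shown for members on which the results below turn, since members of the interferon-inducible group moved apart from each other, as did the chaperones PSMG1 and PSMG2. RefSeq promoters (GRCh38.p14) were matched by symbol for 42 of the 48 members, and the 250 bases before each start were searched on both strands for 4 motifs. The interferon-stimulated response element was searched as GAAANNGAAA, the gamma-activated site bound by STAT factors as TTCNNNGAA, the antioxidant response element bound by NFE2L1 and NFE2L2 as TGACNNNGC, and the CCAAT box as CCAAT. A further upstream stretch of PSMB8 (chr6:32844680-32844929, minus strand), not printed, held no gamma-activated site and no interferon-stimulated response element. In the stretch of PSMB8 printed below (chr6:32844048-32844297, minus strand) the capitals mark the gamma-activated site, 65 to 57 bases before the start. In the last 60 bases before the starts of PSMB10 (chr16:67936851-67936910, minus strand) and PSME2 (chr14:24146611-24146670, minus strand) they mark the interferon-stimulated response element. In the stretches of PSMG1 (chr21:39183601-39183660, minus strand) and PSMG2 (chr18:12658673-12658732, plus strand) they mark the antioxidant response element. Each printed stretch lies within the GENCODE span of its gene, upstream of the RefSeq start but not of every annotated transcript.
PSMB8: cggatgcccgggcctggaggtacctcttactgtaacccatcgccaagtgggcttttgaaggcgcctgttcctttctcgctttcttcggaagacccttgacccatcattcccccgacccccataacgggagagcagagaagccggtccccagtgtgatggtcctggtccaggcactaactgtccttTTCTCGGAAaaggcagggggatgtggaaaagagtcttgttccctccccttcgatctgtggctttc
PSMB10: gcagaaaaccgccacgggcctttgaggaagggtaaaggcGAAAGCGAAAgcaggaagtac
PSME2: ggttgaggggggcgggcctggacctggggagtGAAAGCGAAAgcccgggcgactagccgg
PSMG1: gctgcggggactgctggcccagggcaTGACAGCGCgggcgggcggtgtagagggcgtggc
PSMG2: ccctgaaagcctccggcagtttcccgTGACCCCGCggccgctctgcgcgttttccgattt

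PSMB10, PSME2 and the assembly factor PSMG4 held the same 10 letters, GAAAGCGAAA, close to the start, whereas no match to this element was found in the searched bases of PSMB8 or PSMB9. The interferon-stimulated response element was present in 5 of the 42 members, against 3.71% of the 27305 genes with a promoter. The gamma-activated site was found in 7 of the 42, against 8.09% of all genes, and the antioxidant response element in 13 of the 42, against 13.2%. The CCAAT box was found in 19 of the 42 members, against 37.0% of all genes. Most members with a match passed in neither comparison below, namely 4 of 5 for the interferon-stimulated response element and 5 of 7 for the gamma-activated site. For the antioxidant response element it was 7 of 13, and for the CCAAT box 12 of 19, with the untested PSMB11 among them. The same held for 28 of the 47 tested members. The gamma-activated site was also found in PSMA2, PSMA8, PSMB5, PSMC4, PSMD3 and PSME3. These matches are a description of the letters only.

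Most proteasome genes differed little between Scramble and FIBP-depleted cells. After Si-FIBP#1, 6 of the 47 tested members passed an adjusted p of 0.05 and were higher and 9 were lower (limma on log2(FPKM + 1), Benjamini-Hochberg over all 14985 genes tested), while 27.8% and 19.9% of all genes were called higher and lower. After Si-FIBP#2, 5 members were higher and 8 were lower, beside 31.1% and 17.7% of all genes. As shares of the tested members these are 12.8% and 10.6% upwards and 19.1% and 17.0% downwards. Both comparisons use the same 3 Scramble samples and are not independent. In bulk RNA, less RNA of a gene per cell and fewer cells that express it cannot be told apart.

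The changes were also small in size. The median log2 fold change of the members was -0.03 after Si-FIBP#1 and 0.01 after Si-FIBP#2, and that of all genes was 0.07 and 0.11. The median absolute log2 fold change of the members was 0.10 in each comparison, beside 0.29 over all genes. Only 3 of the 47 members exceeded 0.5 on the log2 scale in either direction with each siRNA, which is 6.38%, while 26.4% and 26.8% of all genes did. The median standard error was 0.07 for the members and 0.11 for all genes, so the intervals of the members were typically narrower. Members and all genes were not matched for expression level, so these sizes are not compared at like levels. A single member, PSMA8, was called at more than 2-fold after Si-FIBP#1. None was after Si-FIBP#2, where no member exceeded 2-fold at any p (limma), while 5.66% and 5.05% of all genes were.

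The summed level of all 48 members was 7041 ± 31.6 FPKM (SD, n = 3) in Scramble, 6933 ± 174 FPKM after Si-FIBP#1 and 6950 ± 334 FPKM after Si-FIBP#2. The 3 groups overlapped in this sum, and the widest spread was that of Si-FIBP#2, whose replicate 2 stood at 7316 FPKM against 6661 and 6872 FPKM in its other samples. Total FPKM also differed between libraries. The members made up 0.896% to 0.898% of it in Scramble, 0.831% to 0.872% after Si-FIBP#1 and 0.848% to 0.937% after Si-FIBP#2. Every Si-FIBP#1 sample thus lay below Scramble in this share. How many members fell depended on the scaling. With each library scaled by the median ratio of its genes, 4 members were higher and 13 lower after Si-FIBP#1. After Si-FIBP#2, 2 were higher and 16 lower on that scale. On the TPM scale 3 were higher and 12 lower after Si-FIBP#1, and 4 higher and 7 lower after Si-FIBP#2. Median-ratio scaling moved the median of all genes down too, from 0.07 to 0.02 after Si-FIBP#1 and from 0.11 to 0.03 after Si-FIBP#2. The shares of all genes called under these scalings are not given here, so the counts cannot be set beside them. Without Si-FIBP#2 replicate 2, 4 members were higher and 14 were lower after Si-FIBP#2. Most members were at the highest level of their group in that library, so its removal lowers their mean by construction. Without Si-FIBP#2 replicate 1 the counts were 4 higher and 8 lower, and without Si-FIBP#2 replicate 3 they were 3 and 7.

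**Figure D1:**
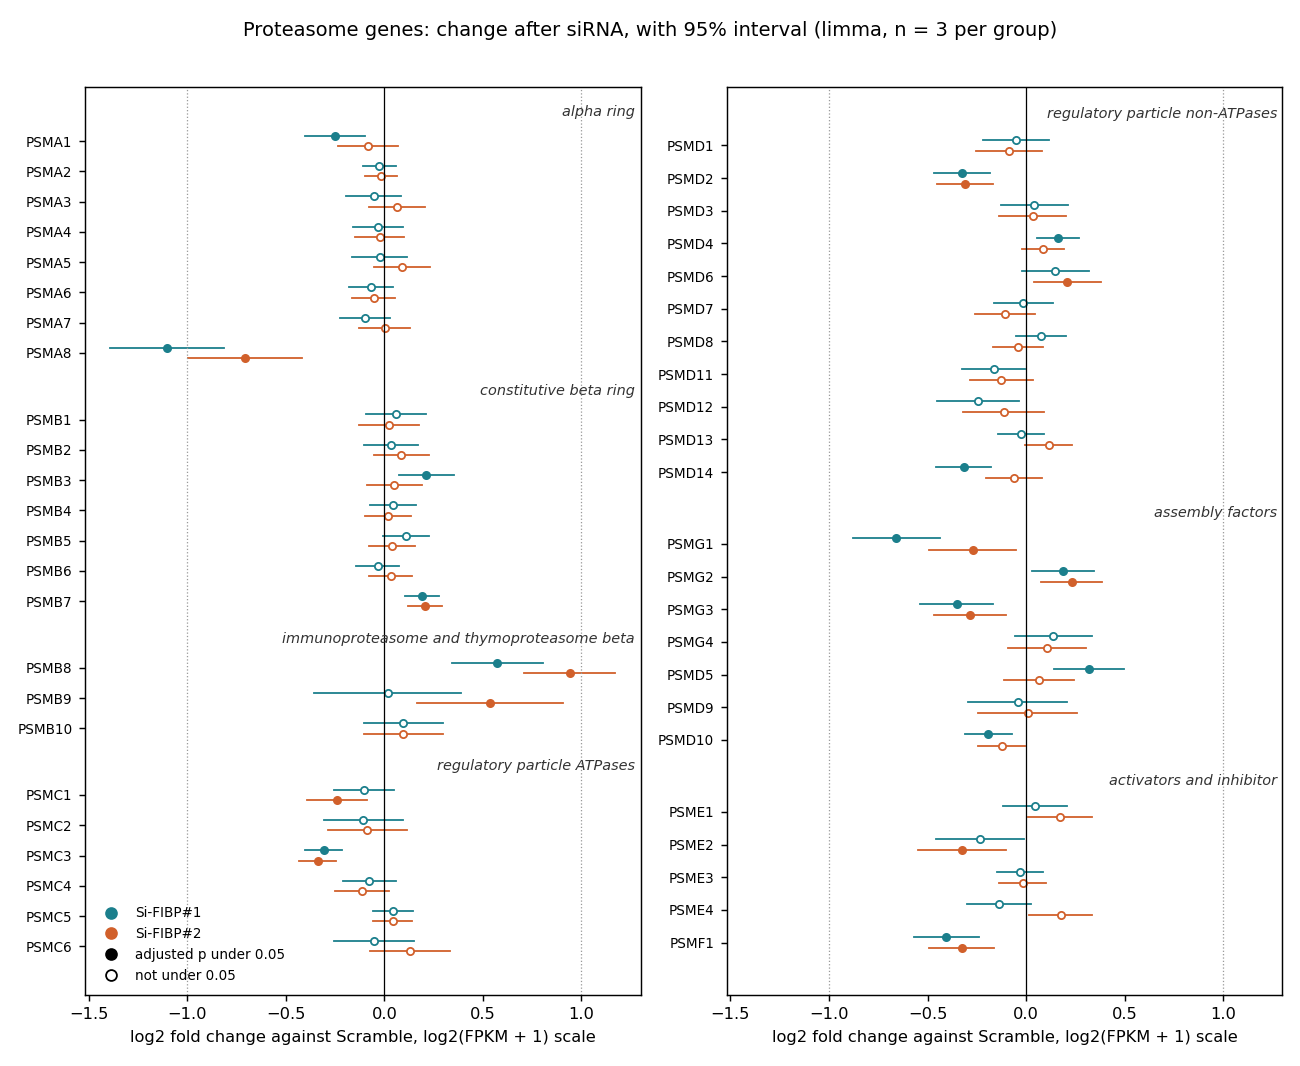
Log2 fold change of the 47 tested members against Scramble, on the log2(FPKM + 1) scale, in 7 classes, with points for Si-FIBP#1 and Si-FIBP#2, bars for the 95% interval of the limma fit and dotted lines at 2-fold. Most points lie within 0.5 of 0, with PSMA8 furthest to the left (-1.10 after Si-FIBP#1) and PSMB8 furthest to the right (0.94 after Si-FIBP#2).

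Among the 8 genes of the alpha ring, which gates the core, none rose (limma), and 0 were higher at an unadjusted p under 0.05 in either comparison. Of the class, 25.0% passed as lower after Si-FIBP#1 and 12.5% after Si-FIBP#2, beside 19.9% and 17.7% of all genes. Over all genes 27.8% and 31.1% were higher. PSMA1 fell by 0.25 on the log2 scale after Si-FIBP#1 (SE 0.07, adjusted p = 0.0127) and was at -0.08 after Si-FIBP#2 (adjusted p = 0.345). Without Si-FIBP#2 replicate 2 it was at -0.16 after Si-FIBP#2 and passed (adjusted p = 0.03). The changes of PSMA2 to PSMA7, subunits of the same ring, lay between -0.10 and 0.09 and passed in neither comparison, though under median-ratio scaling PSMA7 passed as lower after Si-FIBP#1 and PSMA2 and PSMA6 after Si-FIBP#2. Their levels in Scramble ran from 44.9 FPKM for PSMA5 to 359 FPKM for PSMA7. The intervals of PSMA2, the most precisely measured of them, ran from -0.11 to 0.06 after Si-FIBP#1 and from -0.10 to 0.07 after Si-FIBP#2.

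PSMA8, the alpha subunit known from the testis, was by far the lowest member of the ring. It was at 4.05, 4.49 and 5.29 FPKM in Scramble, at 1.82, 1.31 and 1.71 FPKM after Si-FIBP#1 and at 2.56, 2.09 and 2.64 FPKM after Si-FIBP#2. All 6 depleted samples lay below all 3 Scramble samples. The log2 fold change was -1.10 after Si-FIBP#1 (SE 0.13, adjusted p = 0.000109) and -0.71 after Si-FIBP#2 (adjusted p = 0.00152, limma). These values do not come from a known PSMA8 mRNA. An assembled transcript of 2432 nt, which the deposited tables assign to PSMA8, held 99.8% of the gene's FPKM. The annotated transcripts were at or near 0, so PSMA8 was not tested when assembled transcripts were left out.

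The constitutive beta ring was the class with the highest summed level, at 2065 ± 33.1 FPKM (SD, n = 3) in Scramble, 2199 ± 66.9 FPKM after Si-FIBP#1 and 2166 ± 129 FPKM after Si-FIBP#2. Of its 7 genes, 2 rose after Si-FIBP#1 and 1 after Si-FIBP#2, and none fell (limma), with 0 lower at an unadjusted p under 0.05. The rises are 28.6% and 14.3% of the class, beside 27.8% and 31.1% of all genes, of which 19.9% and 17.7% were lower. PSMB7, which carries the trypsin-like site, rose with each siRNA. It was at 404, 394 and 386 FPKM in Scramble, at 453, 461 and 436 FPKM after Si-FIBP#1, and at 448, 455 and 463 FPKM after Si-FIBP#2. All 6 depleted samples exceeded all 3 Scramble samples, by a log2 fold change of 0.19 (SE 0.04, adjusted p = 0.00296) and 0.21 (adjusted p = 0.00175, limma), which is 1.14 and 1.15 times the Scramble mean. PSMB3, a structural beta subunit, rose by 0.21 after Si-FIBP#1 (adjusted p = 0.0182) and was at 0.05 after Si-FIBP#2 (adjusted p = 0.529). The rise passed under 13 of 17 alternatives and not on the TPM scale or without Scramble replicate 2 or 3 or Si-FIBP#1 replicate 2.

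The other constitutive catalytic genes passed in neither comparison. PSMB5, which carries the chymotrypsin-like site, was at 169, 158 and 160 FPKM in Scramble, at 170, 181 and 176 FPKM after Si-FIBP#1 and at 158, 177 and 166 FPKM after Si-FIBP#2. The Si-FIBP#1 samples lay just above the Scramble samples and the Si-FIBP#2 samples overlapped them, with 95% intervals of -0.01 to 0.23 and -0.08 to 0.16. PSMB6, which carries the caspase-like site, was at 225, 213 and 209 FPKM in Scramble, at 203, 218 and 212 FPKM after Si-FIBP#1 and at 212, 230 and 220 FPKM after Si-FIBP#2. All 3 groups of PSMB6 overlapped, with intervals of -0.14 to 0.08 and -0.08 to 0.14. PSMB1, PSMB2 and PSMB4, structural subunits of the ring, were at 0.02 to 0.09 and did not pass. 77.5% of the FPKM of PSMB2 came from assembled transcripts.

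The immunoproteasome genes held the largest rise of the family. PSMB8, the immunoproteasome counterpart of PSMB5, was at 15.5, 14.7 and 15.5 FPKM in Scramble, at 20.8, 25.5 and 23.2 FPKM after Si-FIBP#1 and at 32.6, 25.7 and 32.7 FPKM after Si-FIBP#2. Every depleted sample lay above every Scramble sample, and Si-FIBP#2 replicate 2 stood with the highest Si-FIBP#1 sample. The log2 fold change was 0.57 after Si-FIBP#1 (SE 0.10, adjusted p = 0.00146) and 0.94 after Si-FIBP#2 (SE 0.10, adjusted p = 7.57e-05, limma), or 1.52 and 1.99 times the Scramble mean. Without Si-FIBP#2 replicate 2 the change after Si-FIBP#2 was 1.05, past 2-fold. It was higher after Si-FIBP#2 than after Si-FIBP#1 by 0.37 (adjusted p = 0.0405), a difference that passed under 6 of 17 alternatives.

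PSMB8 lies on chromosome 6 from 32840717 to 32844703 on the minus strand (GENCODE release 29, GRCh38), next to TAP2. The annotated span of PSMB9, from 32844136 to 32859585 on the plus strand, overlaps the first part of PSMB8. Without strand, reads from the overlap cannot be assigned to one gene, and the same holds for the antisense gene PSMB8-AS1, which was at 0.70 to 1.29 FPKM and passed in neither comparison. Both protein-coding transcripts of PSMB8 were higher in the depleted samples. ENST00000374882, whose annotated start is the one that follows the upstream stretch printed above, was at 9.85 ± 0.54 FPKM in Scramble, 15.2 ± 2.30 FPKM after Si-FIBP#1 and 18.7 ± 3.54 FPKM after Si-FIBP#2 (SD, n = 3). ENST00000374881, which starts further upstream, was at 4.82 ± 0.64, 7.03 ± 1.33 and 10.5 ± 1.68 FPKM. Its start lies 24 bases from the RefSeq start that follows the PSMB8 stretch with no match to either element. The transcripts were looked at after the gene values were seen and were not tested.

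PSMB9, the immunoproteasome counterpart of PSMB6, was the lowest of the tested immunoproteasome genes. It was at 4.38, 5.20 and 6.01 FPKM in Scramble, at 4.97, 5.88 and 4.90 FPKM after Si-FIBP#1 and at 7.75, 6.16 and 10.4 FPKM after Si-FIBP#2. The Si-FIBP#1 samples overlapped the Scramble samples, while the Si-FIBP#2 samples lay above them. PSMB9 rose by 0.54 after Si-FIBP#2 (SE 0.17, adjusted p = 0.0231, limma) and was at 0.02 after Si-FIBP#1 (adjusted p = 0.943). The rise failed the threshold under median-ratio scaling, without a filter and when Scramble replicate 1 or 2, or Si-FIBP#2 replicate 3, was left out, and the difference between the siRNAs, 0.52, did not pass (adjusted p = 0.0636). That difference passed on the TPM scale, with a filter of 5 FPKM and without Si-FIBP#2 replicate 2 (0.68, adjusted p = 0.01665, limma).

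PSMB10, the immunoproteasome counterpart of PSMB7, did not pass as a gene. It was at 33.7, 32.8 and 29.9 FPKM in Scramble, at 36.3, 37.9 and 29.6 FPKM after Si-FIBP#1 and at 35.5, 33.6 and 34.2 FPKM after Si-FIBP#2. The groups overlapped, and both 95% intervals ran from about -0.1 to 0.30. Without Si-FIBP#1 replicate 3, the lowest sample of its group, PSMB10 was at 0.20 after Si-FIBP#1 and passed (adjusted p = 0.0432). Its transcripts did not move together. The protein-coding ENST00000358514, whose annotated start lies 237 bases upstream of the RefSeq start used above, so that the printed stretch falls within its span, was at 7.51, 9.39 and 9.47 FPKM in Scramble, at 11.8, 11.3 and 9.66 FPKM after Si-FIBP#1 and at 16.6, 14.9 and 15.8 FPKM after Si-FIBP#2. The retained-intron transcript ENST00000570985 was at 22.1 ± 2.52, 21.0 ± 3.70 and 16.3 ± 0.90 FPKM in the same order (SD, n = 3). The protein-coding transcript therefore made up 27.5% of the gene's FPKM in Scramble, 31.6% after Si-FIBP#1 and 45.7% after Si-FIBP#2. These transcripts were likewise chosen after their values were seen, and FPKM of overlapping transcripts depend on how the reads were divided between them.

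As a share of each catalytic pair, PSMB8 made up 8.58 ± 0.25% of PSMB5 and PSMB8 together in Scramble, 11.7 ± 0.72% after Si-FIBP#1 and 15.4 ± 2.39% after Si-FIBP#2 (SD, n = 3). PSMB9 made up 2.36 ± 0.44%, 2.42 ± 0.19% and 3.55 ± 0.95% of PSMB6 and PSMB9. PSMB10 made up 7.53 ± 0.29%, 7.12 ± 0.67% and 7.03 ± 0.26% of PSMB7 and PSMB10. The share of PSMB8 was thus above every Scramble sample in all depleted samples, and the constitutive subunit remained the more abundant RNA of every pair in each of the 9 samples.

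**Figure D2:**
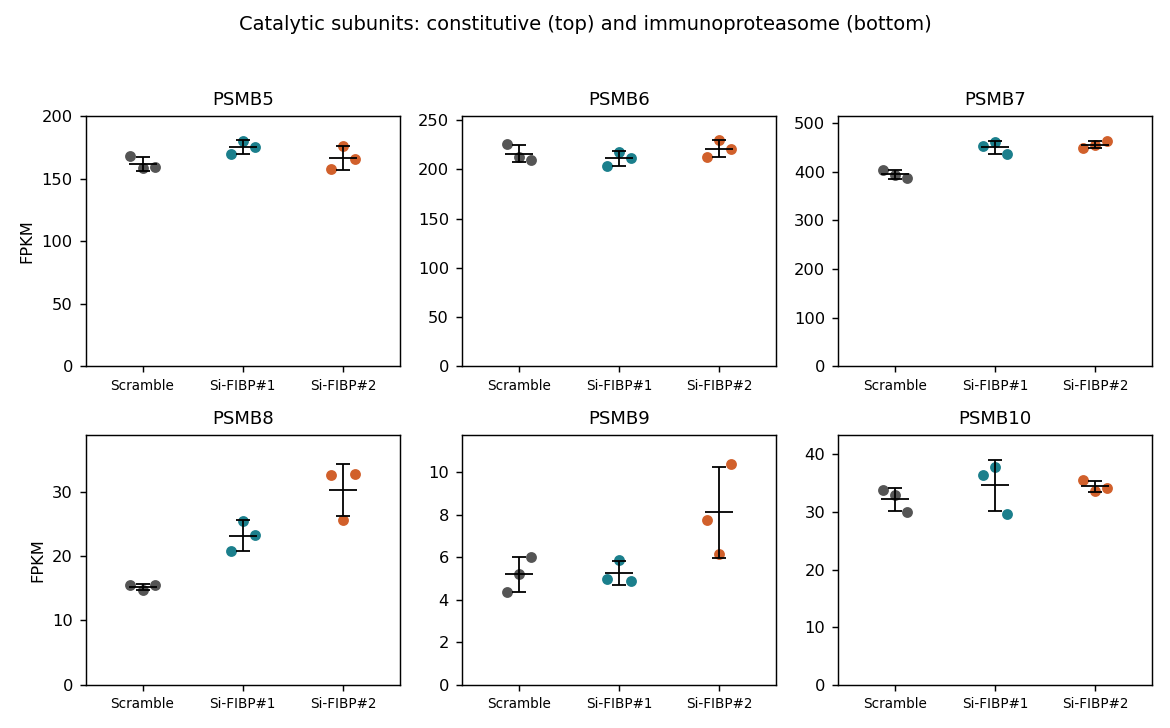
FPKM of the constitutive catalytic genes PSMB5, PSMB6 and PSMB7 (top) and of their immunoproteasome counterparts PSMB8, PSMB9 and PSMB10 (bottom) in each sample, with points for samples and bars for the mean ± SD (n = 3). PSMB8 is higher in all 6 depleted samples than in Scramble and PSMB7 by a smaller factor, while PSMB5, PSMB6 and PSMB10 stay close to the Scramble mean.

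**Figure D3:**
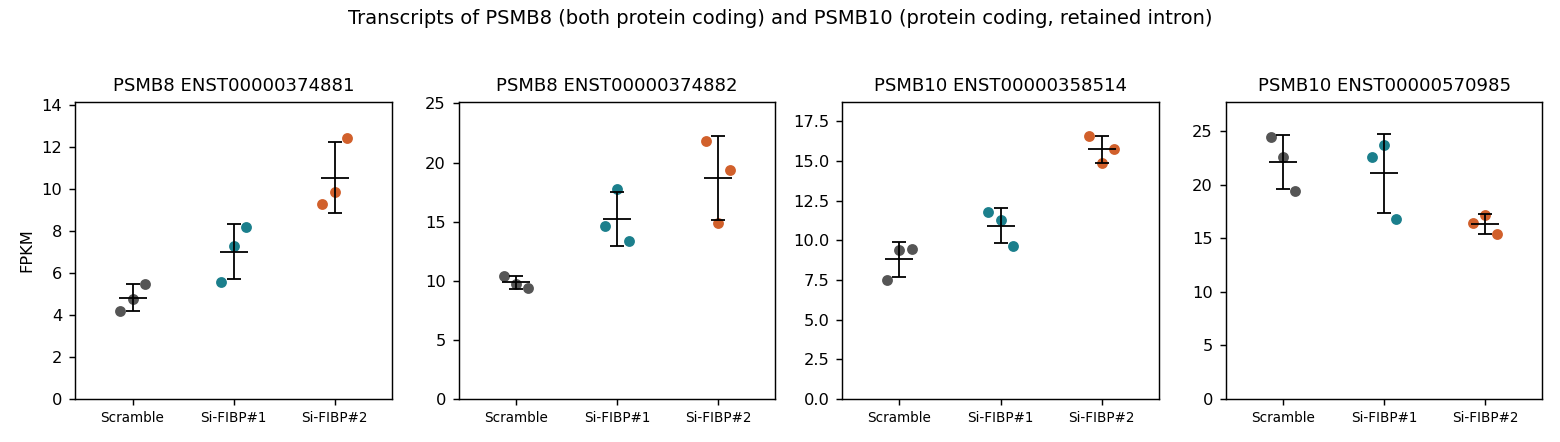
FPKM of the 2 protein-coding transcripts of PSMB8 and of the protein-coding and retained-intron transcripts of PSMB10 in each sample, with points for samples and bars for the mean ± SD (n = 3). Both PSMB8 transcripts are higher after depletion, whereas of PSMB10 the protein-coding transcript is higher after Si-FIBP#2 (15.7 against 8.79 FPKM in Scramble) and the retained-intron transcript is lower.

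Of the 6 ATPases that form the base of the regulatory particle, none rose (limma), with 0 higher at an unadjusted p under 0.05. The class held 16.7% lower after Si-FIBP#1 and 33.3% after Si-FIBP#2, beside 19.9% and 17.7% of all genes. Over all genes 27.8% and 31.1% were higher. PSMC3, the ATPase RPT5, fell with each siRNA. It was at 162, 159 and 165 FPKM in Scramble, at 130, 129 and 133 FPKM after Si-FIBP#1 and at 124, 132 and 128 FPKM after Si-FIBP#2. The Scramble samples and the depleted samples did not overlap, and the spread within each group was narrow. The log2 fold change was -0.31 after Si-FIBP#1 (SE 0.04, adjusted p = 0.000278) and -0.34 after Si-FIBP#2 (adjusted p = 0.000162, limma). The difference lay mostly in 1 of its transcripts, the protein-coding ENST00000602866, at 82.9 ± 0.49, 49.8 ± 1.12 and 58.1 ± 4.38 FPKM in the 3 groups (SD, n = 3).

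PSMC1, the ATPase RPT2, was at 430 ± 24.3 FPKM in Scramble, 400 ± 16.4 FPKM after Si-FIBP#1 and 364 ± 31.5 FPKM after Si-FIBP#2 (SD, n = 3). It fell by 0.24 after Si-FIBP#2 (adjusted p = 0.0146) and was at -0.10 after Si-FIBP#1 (adjusted p = 0.238). Without Scramble replicate 3 the change after Si-FIBP#2 was -0.20 and did not pass (adjusted p = 0.0584). Its value is uncertain because reads can be shared with pseudogenes. PSMC1P1 fell by 0.30 after Si-FIBP#1 and by 0.39 after Si-FIBP#2 (adjusted p = 0.0314 and 0.00903), from 34.2 ± 5.47 to 27.4 ± 0.91 and 25.7 ± 1.21 FPKM (SD, n = 3), with every depleted sample below Scramble. PSMC1P5 ran from 0 to 65.4 FPKM with overlapping groups. These were the only 2 of 35 listed pseudogenes of the family that exceeded 1 FPKM. PSMC2, PSMC4, PSMC5 and PSMC6, the remaining ATPases, were at -0.11 to 0.13 and did not pass. PSMC4 was at -0.11 after Si-FIBP#2 (adjusted p = 0.145), and at -0.19 and passing when Si-FIBP#2 replicate 2 was left out (adjusted p = 0.00293).

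Of the 11 non-ATPase subunits, 1 rose and 2 fell after Si-FIBP#1, and 1 rose and 1 fell after Si-FIBP#2. The shares were 9.09% higher and 18.2% lower after Si-FIBP#1, beside 27.8% and 19.9% of all genes. For Si-FIBP#2 they were 9.09% and 9.09%, beside 31.1% and 17.7% of all genes. PSMD2, the scaffold subunit RPN1 that docks ubiquitin-binding factors, fell with each siRNA. It was at 270, 255 and 242 FPKM in Scramble, at 206, 198 and 208 FPKM after Si-FIBP#1 and at 193, 225 and 201 FPKM after Si-FIBP#2. All depleted samples lay below the lowest Scramble sample. The log2 fold change was -0.33 (SE 0.06, adjusted p = 0.00243) and -0.31 (adjusted p = 0.00313, limma).

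PSMD14, the deubiquitinase RPN11 that removes the ubiquitin chain as the substrate enters, fell by 0.32 after Si-FIBP#1 (SE 0.06, adjusted p = 0.00254) and was at -0.06 after Si-FIBP#2 (adjusted p = 0.442). Its group means were 178 ± 5.74, 143 ± 10.5 and 170 ± 9.27 FPKM (SD, n = 3), and the direct difference between the siRNAs was 0.25 (adjusted p = 0.0247), which was lost without Si-FIBP#1 replicate 1 or Si-FIBP#2 replicate 3. PSMD4, the ubiquitin receptor RPN10, rose by 0.16 after Si-FIBP#1 (adjusted p = 0.0191) and was at 0.09 after Si-FIBP#2 (adjusted p = 0.164). PSMD6, the subunit RPN7, rose by 0.21 after Si-FIBP#2 (adjusted p = 0.045) and was at 0.15 after Si-FIBP#1 (adjusted p = 0.139), where it passed without Si-FIBP#1 replicate 1. These rises were small and weakly held, since that of PSMD4 passed under 11 and that of PSMD6 under 8 of 17 alternatives. The first was lost without Scramble replicate 2 or 3 or Si-FIBP#1 replicate 2, and the second without Scramble replicate 1 or 3, Si-FIBP#1 replicate 2 or any 1 Si-FIBP#2 sample. PSMD1, PSMD3, PSMD7, PSMD8, PSMD11, PSMD12 and PSMD13, further lid and base subunits, were at -0.24 to 0.11 and passed in neither comparison. PSMD12 at -0.24 and PSMD11 at -0.17 after Si-FIBP#1 (adjusted p = 0.0528 and 0.0826) passed under 7 and 5 of 17 alternatives. After Si-FIBP#2, PSMD1 was at -0.09, PSMD7 at -0.11, PSMD8 at -0.04 and PSMD12 at -0.11 (adjusted p = 0.353, 0.214, 0.565 and 0.336). Without Si-FIBP#2 replicate 2, PSMD1 at -0.17, PSMD7 at -0.17, PSMD8 at -0.11 and PSMD12 at -0.21 passed as lower after Si-FIBP#2 (adjusted p = 0.0446, 0.0321, 0.0498 and 0.0426), and PSMD6 at 0.17 no longer passed as higher (adjusted p = 0.117).

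Of the 7 assembly factors, 2 were higher and 3 lower after Si-FIBP#1, and 1 was higher and 2 were lower after Si-FIBP#2, which is 71.4% and 42.9% of the class beside 47.7% and 48.8% of all genes. PSMG1 and PSMG2 are chaperones that act together as a dimer in building the alpha ring, and their RNAs moved in opposite directions. PSMG1 was at 44.8, 51.0 and 49.5 FPKM in Scramble, at 27.6, 30.5 and 33.0 FPKM after Si-FIBP#1 and at 44.2, 41.5 and 34.6 FPKM after Si-FIBP#2. The Si-FIBP#1 samples were far below Scramble, and the highest Si-FIBP#2 sample came close to the lowest Scramble sample. PSMG1 fell by 0.66 after Si-FIBP#1 (SE 0.10, adjusted p = 0.000472) and by 0.27 after Si-FIBP#2 (adjusted p = 0.0439, limma). The second fall passed under 8 of 17 alternatives. It was lost on the TPM scale, without a filter, with only the groups compared and with the replicate number as a block. The call also failed without Scramble replicate 2 or 3, Si-FIBP#1 replicate 2, or Si-FIBP#2 replicate 3 or 2, at -0.30 without the last of these (adjusted p = 0.0568). The siRNAs differed by 0.39 (adjusted p = 0.0274), and not without replicate 1 or 2 of either siRNA.

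PSMG2 was at 46.7, 48.4 and 51.7 FPKM in Scramble, at 52.0, 56.1 and 59.7 FPKM after Si-FIBP#1 and at 54.5, 61.5 and 56.8 FPKM after Si-FIBP#2. All depleted samples were above Scramble, the lowest only by a small margin. It rose by 0.19 after Si-FIBP#1 (adjusted p = 0.049) and by 0.23 after Si-FIBP#2 (adjusted p = 0.0209, limma), which passed under 8 and 13 of 17 alternatives. The rise after Si-FIBP#1 was lost without Scramble replicate 1 or 2, Si-FIBP#1 replicate 2 or 3, or Si-FIBP#2 replicate 3. That after Si-FIBP#2 was lost without Scramble replicate 1 or 2 or Si-FIBP#2 replicate 2, at 0.18 without the latter (adjusted p = 0.0592).

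PSMG3, which with PSMG4 forms a further chaperone dimer, was at 85.6 ± 6.51 FPKM in Scramble, 66.9 ± 4.32 FPKM after Si-FIBP#1 and 70.2 ± 6.34 FPKM after Si-FIBP#2 (SD, n = 3). It fell by 0.35 after Si-FIBP#1 (adjusted p = 0.00612) and by 0.28 after Si-FIBP#2 (adjusted p = 0.017), the latter not without Scramble replicate 1 or 3. Its partner PSMG4 was at 0.14 and 0.10 and did not pass. PSMG3-AS1, an antisense gene whose annotated span overlaps that of PSMG3, rose by 1.44 and 1.45 on the log2 scale (adjusted p = 0.000352 and 0.000329), from 2.11 ± 0.47 to 7.40 ± 1.11 and 7.69 ± 2.61 FPKM. It was picked after its values were seen, and without strand its reads cannot be separated from those of PSMG3 where the genes overlap.

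PSMD5, PSMD9 and PSMD10, chaperones of the ATPase base, differed from each other. PSMD5 rose by 0.32 after Si-FIBP#1 (adjusted p = 0.00815) and was at 0.06 after Si-FIBP#2. PSMD10, also named gankyrin, fell by 0.19 after Si-FIBP#1 (adjusted p = 0.0142) and was at -0.12 after Si-FIBP#2 (adjusted p = 0.078). It was at -0.16 after Si-FIBP#2 and passed when Si-FIBP#2 replicate 2 was left out (adjusted p = 0.0352), and its fall after Si-FIBP#1 did not pass without Scramble replicate 2. PSMD9 was at -0.04 and 0.01 and did not pass.

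Among the genes for proteins that bind the ends of the core, PSMF1, the proteasome inhibitor PI31, fell with each siRNA. It was at 64.1, 72.6 and 75.1 FPKM in Scramble, at 53.7, 53.0 and 52.1 FPKM after Si-FIBP#1 and at 55.4, 52.0 and 60.8 FPKM after Si-FIBP#2. The depleted samples lay below all Scramble samples, those of Si-FIBP#1 within a narrow range. The log2 fold change was -0.41 (SE 0.07, adjusted p = 0.00149) and -0.33 (adjusted p = 0.00485, limma).

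PSME1 and PSME2 encode the alpha and beta subunits of the interferon-inducible activator PA28, and they lie close to each other on chromosome 14. PSME2 fell by 0.33 after Si-FIBP#2 (SE 0.10, adjusted p = 0.0224), from 129 ± 3.90 to 104 ± 14.7 FPKM (SD, n = 3), a call lost without a filter (adjusted p = 0.0651) and without Scramble replicate 3 (adjusted p = 0.068). It was at -0.24 after Si-FIBP#1 (adjusted p = 0.0778) and a level of 110 ± 9.39 FPKM, and passed there under 5 of 17 alternatives, one of them without Si-FIBP#2 replicate 2. PSME1 was at 0.17 after Si-FIBP#2 (adjusted p = 0.077) and 0.05 after Si-FIBP#1 (adjusted p = 0.638). Without Si-FIBP#2 replicate 2, PSME1 was at 0.26 and passed (adjusted p = 0.00278), and PSME2 was at -0.20 (adjusted p = 0.0366). Among the interferon-inducible members, therefore, PSMB8 rose with each siRNA. PSMB9 rose and PSME2 fell after Si-FIBP#2, calls that were lost under some alternatives. PSMB10 and PSME1 passed in neither comparison of the main fit. PSME3, the nuclear activator PA28-gamma, was at -0.03 and -0.02 and passed in neither comparison.

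PSME4, the activator PA200, passed against Scramble with neither siRNA, at -0.14 (adjusted p = 0.141) and 0.17 (adjusted p = 0.0698). Its 3 samples were at 25.9, 24.9 and 26.7 FPKM in Scramble, at 22.1, 23.3 and 24.9 FPKM after Si-FIBP#1 and at 28.1, 27.9 and 32.1 FPKM after Si-FIBP#2. The siRNAs thus lay on opposite sides of Scramble, and the difference between them, 0.31, passed (adjusted p = 0.0185, limma), though not without Si-FIBP#1 replicate 1 or 2 or Si-FIBP#2 replicate 3. It was 1 of 4 members that passed between Si-FIBP#2 and Si-FIBP#1, with PSMB8, PSMD14 and PSMG1, and all were higher after Si-FIBP#2. These are 8.51% of the members, beside 15.4% of all genes, with 9.58% higher and 5.8% lower. Without Si-FIBP#1 replicate 1, 0 members passed this comparison (limma) and 9 had an unadjusted p under 0.05. With Si-FIBP#2 replicate 2 left out instead, 9 members passed the adjusted threshold. Of these, PSMB3 at -0.23, PSMC1 at -0.21 and PSMD8 at -0.18 were lower after Si-FIBP#2 and the others higher. PSMG1 was not among them (adjusted p = 0.0572, limma), so the shared direction did not hold in that fit. An assembled transcript held 33.5% of the FPKM of PSME4, and with annotated transcripts only PSME4 was at -0.29 after Si-FIBP#1 and passed (adjusted p = 0.0196). With the replicate number as a block its change after Si-FIBP#2 passed (adjusted p = 0.0394).

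**Figure D4:**
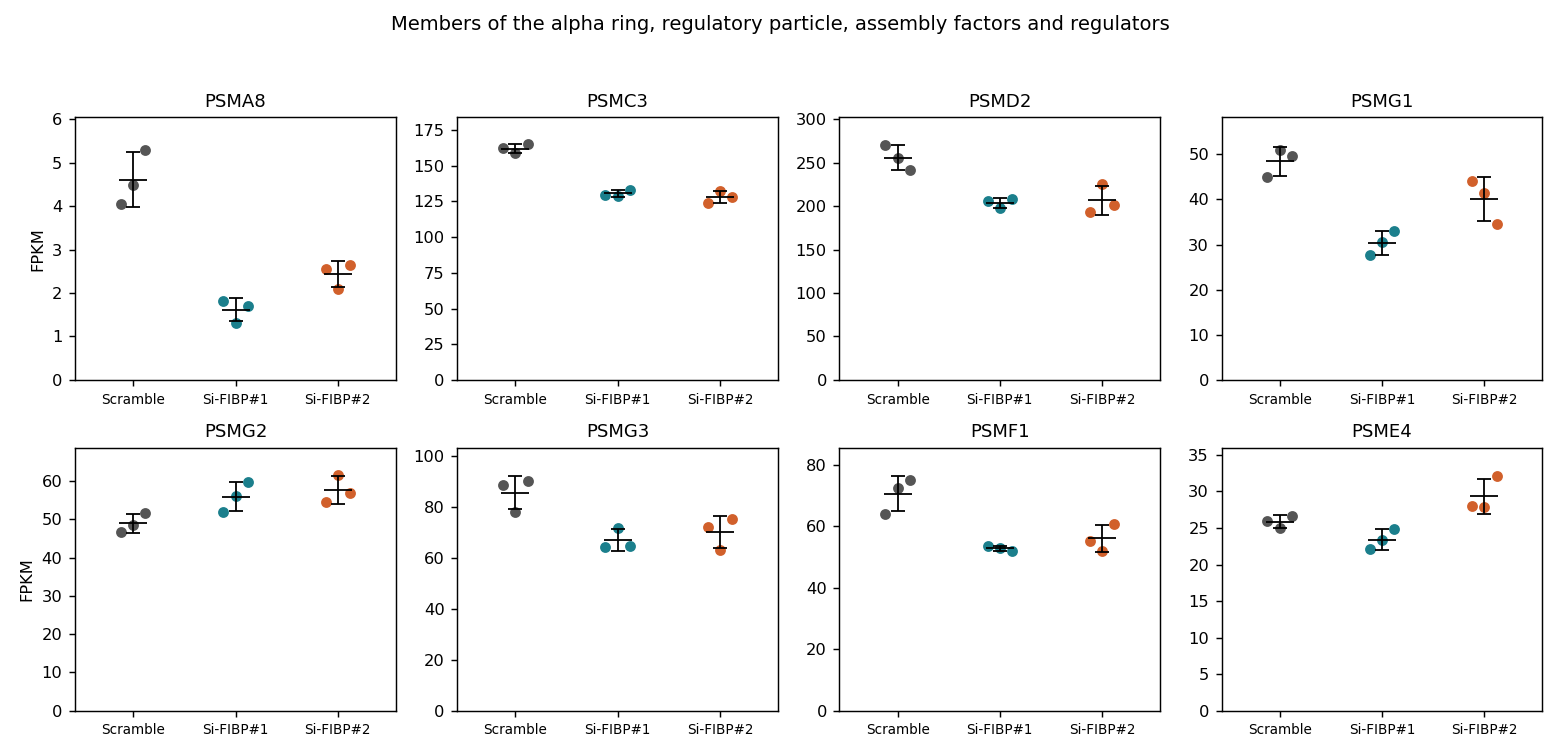
FPKM of PSMA8, PSMC3, PSMD2, PSMG1, PSMG2, PSMG3, PSMF1 and PSME4 in each sample, with points for samples and bars for the mean ± SD (n = 3). In all of these genes but PSMG2 and PSME4 the depleted samples lie below Scramble, PSMG2 lies above it, and PSME4 is lower after Si-FIBP#1 and higher after Si-FIBP#2.

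A list of 28 other genes that build, control or feed the proteasome was read in the same fit, and all 28 were tested. After Si-FIBP#1, 5 were higher and 10 lower, and after Si-FIBP#2 2 were higher and 8 lower. The shares, 17.9% and 35.7% after Si-FIBP#1 and 7.14% and 28.6% after Si-FIBP#2, lay below those of all genes upwards and above them downwards. The groups of the list differed in this. All 4 shuttle receptors were lower with each siRNA and are counted here, while 0 of the 4 genes for ubiquitin and E1 passed. The list and its 5 groups were chosen with earlier results of these data known.

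The shuttle receptors, which carry ubiquitinated proteins to receptors such as PSMD2 and PSMD4, are the group of this list with the largest median change. The 4 listed fell after Si-FIBP#1 and likewise after Si-FIBP#2, with a median log2 fold change of -0.86 and -0.97. For all genes the median was 0.07 and 0.11, and 19.9% and 17.7% were lower. UBQLN4 was at 30.8, 28.5 and 29.6 FPKM in Scramble, at 14.1, 12.6 and 13.3 FPKM after Si-FIBP#1 and at 13.3, 10.3 and 11.7 FPKM after Si-FIBP#2, a log2 fold change of -1.10 (adjusted p = 1.07e-05) and -1.27 (adjusted p = 5.24e-06, limma). RAD23B was at 109, 117 and 115 FPKM in Scramble, at 52.5, 43.4 and 46.6 FPKM after Si-FIBP#1 and at 64.3, 33.2 and 58.2 FPKM after Si-FIBP#2. In neither gene did a depleted sample reach the Scramble range, and the replicates of RAD23B after Si-FIBP#2 were spread widely.

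RAD23B fell by 1.24 and 1.17 on the log2 scale (adjusted p = 0.000739 and 0.00106), and by 0.88 after Si-FIBP#2 when its replicate 2 was left out. UBQLN1 fell by 0.27 and 0.77 (adjusted p = 0.00438 and 9.44e-06), and the siRNAs differed by 0.50 (adjusted p = 0.000958). UBQLN2 fell by 0.61 and 0.62 (adjusted p = 0.000419 and 0.000375). Each of these falls passed under all 17 alternatives. Their summed level ran from 249 to 263 FPKM in Scramble, from 145 to 157 FPKM after Si-FIBP#1 and from 106 to 149 FPKM after Si-FIBP#2. The summed FPKM of the proteasome members overlapped between the same groups, but their share of total FPKM was below Scramble in every Si-FIBP#1 sample.

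Of the 11 genes for assembly and associated factors, 1 rose and 5 fell after Si-FIBP#1, and 2 fell after Si-FIBP#2. The shares were 9.09% higher and 45.5% lower after Si-FIBP#1, beside 27.8% and 19.9% of all genes. For Si-FIBP#2, 18.2% were lower, beside 17.7% of all genes. UCHL5, a deubiquitinase of the regulatory particle, fell by 0.79 and 0.49 (adjusted p = 9.92e-05 and 0.00169), and ADRM1, the ubiquitin receptor RPN13 that recruits it, fell by 0.22 and 0.15 (adjusted p = 0.00708 and 0.045). The fall of ADRM1 after Si-FIBP#2 passed under 9 of 17 alternatives and was lost when any 1 Scramble sample was left out. USP14, the other deubiquitinase that binds the particle reversibly, was at 0.00 and -0.03 and did not pass, but with annotated transcripts only it was at 0.20 after Si-FIBP#1 and passed (adjusted p = 0.0387). POMP, the maturation factor of the core, was at -0.05 and -0.06 and did not pass. AKIRIN2, which brings proteasomes into the nucleus, fell by 0.29 after Si-FIBP#1 (adjusted p = 0.00181) and was at -0.14 after Si-FIBP#2 (adjusted p = 0.0525), where it passed under 4 of 17 alternatives, among them the fit without Si-FIBP#2 replicate 2 (-0.18, adjusted p = 0.0174). SEM1, the smallest subunit of the particle, rose by 0.22 after Si-FIBP#1 (adjusted p = 0.0397) and was at -0.10 after Si-FIBP#2 (adjusted p = 0.3). The rise passed under 8 of 17 alternatives and was lost when any 1 Si-FIBP#1 sample was left out, and without Si-FIBP#2 replicate 2 SEM1 was at -0.18 after Si-FIBP#2 and passed (adjusted p = 0.0404).

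Among the 5 genes that control transcription of subunit genes, DDI2, the protease that activates NFE2L1, rose by 0.40 and 0.45 (adjusted p = 0.00218 and 0.000996), at 7.18 ± 0.20, 9.79 ± 0.76 and 10.2 ± 0.50 FPKM (SD, n = 3). NFE2L1 rose by 0.31 after Si-FIBP#1 (adjusted p = 0.013; not without Scramble replicate 2 or with annotated transcripts only) and was at -0.05 after Si-FIBP#2 (adjusted p = 0.636), a difference between the siRNAs of -0.37 (adjusted p = 0.0192). That difference passed under 11 of 17 alternatives and was lost without a filter, with annotated transcripts only, and without replicate 1 or 3 of either siRNA. NFE2L2, the regulator of the oxidative stress response, fell by 0.40 and 0.33 (adjusted p = 0.000183 and 0.000577). NGLY1, the enzyme that deglycosylates NFE2L1, fell by 0.18 after Si-FIBP#2 (adjusted p = 0.0351), which passed under 11 of 17 alternatives and was lost without Si-FIBP#2 replicate 2 (-0.14, adjusted p = 0.0845) and when any 1 Scramble sample was left out. VCP, the ATPase that extracts NFE2L1 from the endoplasmic reticulum, passed in neither comparison but was called lower after Si-FIBP#1 under median-ratio scaling.

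UBB and RPS27A, which encode ubiquitin, and UBA1 and UBA6, which activate it, passed in neither comparison. Of these 4 genes, 1 had an unadjusted p under 0.05 after Si-FIBP#1 and 0 did after Si-FIBP#2 (limma). After Si-FIBP#1, UBB at -0.15 passed under 4 and UBA1 at 0.12 under 3 of 17 alternatives, both among them without Si-FIBP#2 replicate 2.

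The 4 genes for immunoproteasome control and peptide transport held 2 that rose after Si-FIBP#1 and 1 that rose after Si-FIBP#2. These are 50.0% and 25.0% of the group, beside 27.8% and 31.1% of all genes. NLRC5, the activator of antigen presentation genes, rose by 0.49 and 0.54 (adjusted p = 0.0418 and 0.0283) from a low level of 1.32 ± 0.40 FPKM, and passed under 6 and 9 of 16 alternatives. TAP1, whose promoter is shared with PSMB9, rose by 0.28 after Si-FIBP#1 (adjusted p = 0.0164, and 0.0528 without Si-FIBP#1 replicate 2) and was at 0.07 after Si-FIBP#2, and its difference between the siRNAs did not pass (adjusted p = 0.107). Without Si-FIBP#2 replicate 2 that difference was -0.31 and passed (adjusted p = 0.00779, limma). IRF1 and TAP2 passed in neither comparison.

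**Figure D5:**
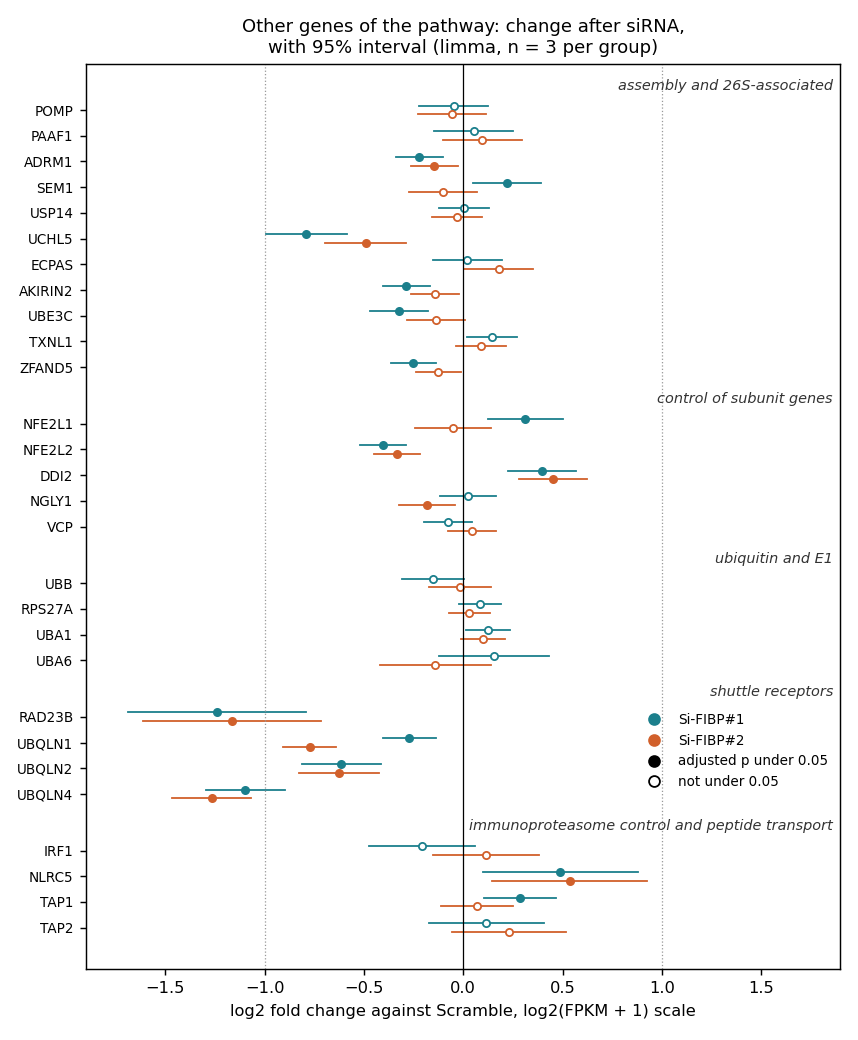
Log2 fold change against Scramble of the 28 other genes of the pathway, on the log2(FPKM + 1) scale, in 5 groups, with points for Si-FIBP#1 and Si-FIBP#2, bars for the 95% interval of the limma fit and dotted lines at 2-fold. The 4 shuttle receptors lie to the left of 0 with both siRNAs, UBQLN4 and RAD23B past 2-fold, and DDI2 and NLRC5 lie to the right.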

How the data were processed

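RNA of H1299 cells was measured in 9 samples, grouped by the labels as Scramble, Si-FIBP#1 and Si-FIBP#2 with 3 samples each. The authors deposited FPKM to 2 decimals, in a separate table for each sample, of Ensembl and assembled transcripts; the unit was inferred from the values, and the submitters' processing notes list HISAT2 and StringTie, without versions or roles. Genome build, annotation and strand use are not given in the sources used here. Whether the kit marks strand is not stated in them either. FPKM are relative to each library's total and depend on how reads were divided among overlapping transcripts and copies.

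FPKM were summed over the transcripts of each gene. The test was limma 3.58.1 (R 4.3.3) for genes that reached 1 FPKM in at least 3 samples (all 9 samples, empirical Bayes with a trend) on log2(FPKM + 1), with Benjamini-Hochberg adjustment over 14985 genes. A fold change on this scale understates that of low genes. The 2-fold call also asks for an adjusted p under 0.05. The p-values measure only the spread between these samples, which may be technical. Fragments per sample were estimated from the steps of low FPKM of 8100 genes with a single transcript. The fit was tested on simulated data. Summaries used pandas 2.3.3 and numpy 2.4.6 under Python 3.11.15, and plots matplotlib 3.10.9.

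The members, classes and lists were chosen with earlier results of these data known. Values in every sample are given for the 3 catalytic pairs, members called at 2-fold, and in each class the members with the largest rise and fall (mean of both comparisons) among those that passed in both in 1 direction. FIBP and the 28 other pathway genes were also named by the rule. Values outside it, those of PSMG3-AS1, the PSMC1 pseudogenes, the samples of PSME4 and all single transcripts, were chosen after they were seen. Alternatives were TPM or median-ratio scaling, a pseudocount of 0.1, no filter or 5 FPKM, only the groups compared, annotated transcripts only, a replicate block, and a fit without each sample in turn. Coordinates are from GENCODE release 29 (GRCh38) and promoters from RefSeq (GRCh38.p14), matched by Ensembl identifier and symbol, and the deposited transcripts may differ from them. Of 51 member promoters, the first transcribed bases of 49 were found near the start of a GENCODE transcript of that gene in the same direction and 0 in the opposite direction. Protein sequences were not used here, and some genes of the lists are not reported here.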

Additional observations from a re-analysis of the deposited data

Results flagged for a closer look

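4 of the 47 tested members, 8.51%, differed between the siRNAs themselves (limma, Si-FIBP#2 against Si-FIBP#1, Benjamini-Hochberg over all genes), beside 15.4% of all genes. All 4 were higher after Si-FIBP#2, as were 9.58% of all genes, while 5.8% of all genes were lower. The shared direction did not hold without Si-FIBP#2 replicate 2, where PSMB3, PSMC1 and PSMD8 passed as lower after Si-FIBP#2 and PSMG1 did not pass. PSMB8 was higher by 0.37 on the log2 scale (adjusted p = 0.0405) and in 3 of 3 samples, at 30.3 ± 4.04 against 23.2 ± 2.35 FPKM (SD, n = 3). PSMD14 was higher by 0.25 (adjusted p = 0.0247) and in 3 of 3 samples, and PSMG1 by 0.39 (adjusted p = 0.0274) and in 3 of 3 samples, where both were lowest after Si-FIBP#1. PSME4 was higher by 0.31 (adjusted p = 0.0185) and in 3 of 3 samples. The differences passed under 6 of 17 alternatives for PSMB8, 13 for PSMD14, 11 for PSMG1 and 14 for PSME4. Groups of 3 samples are too small to be searched for single outlying samples.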

How the results depend on the processing

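Of the 15 members that passed after Si-FIBP#1, 11 passed under every alternative that could test them, and of the 13 after Si-FIBP#2, 6 did; no call changed direction. PSMB7, PSMB8, PSMC3, PSMD2 and PSMF1 passed in each comparison under all 17 alternatives, and PSMA8 under the 15 that could test it. FIBP fell under all 17. The members higher after Si-FIBP#1 numbered 6, and 3 on the TPM scale. Those higher after Si-FIBP#2 numbered 5, with 2 under median-ratio scaling and 3 without a filter, and those lower after Si-FIBP#2 numbered 8, with 16 under median-ratio scaling. The 2-fold call of PSMA8 after Si-FIBP#1 was lost, leaving 0, with a filter of 5 FPKM and with annotated transcripts only, since PSMA8 was then not tested. Between the siRNAs 4 members passed, with 1 without a filter and 2 with only the groups compared. The median of the members was -0.03 after Si-FIBP#1, and -0.0901 under median-ratio scaling. After Si-FIBP#2 it was 0.01, and -0.0884 under median-ratio scaling, where the median of all genes was 0.02 and 0.03. Of the other pathway genes, 5 were higher after Si-FIBP#1, and 3 with TPM or median-ratio scaling or without a filter. After Si-FIBP#2, 2 of them were higher, and 1 without a filter, with a filter of 5 FPKM, with only the groups compared or with annotated transcripts only. Apart from the loss of PSMA8, the causes were not tested. Shares of all genes called under the alternatives are not given here.

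With 1 sample left out at a time, a fit in which a group of 2 samples is assumed to vary like the others, the members higher after Si-FIBP#1 ranged from 3 (without Scramble replicate 2 or Si-FIBP#1 replicate 2) to 7, those higher after Si-FIBP#2 from 2 (without Scramble replicate 1; 3 without Scramble replicate 2 or Si-FIBP#2 replicate 3) to 5, and those lower after Si-FIBP#2 from 4 (without Scramble replicate 3) to 14 (without Si-FIBP#2 replicate 2). The latter library also decided whether 0 or 1 members, PSMB8, were called at 2-fold after Si-FIBP#2. Members that passed between the siRNAs ranged from 0 (without Si-FIBP#1 replicate 1) to 9 (without Si-FIBP#2 replicate 2), with 2 without Si-FIBP#1 replicate 2 or Si-FIBP#2 replicate 1 and 1 without Si-FIBP#2 replicate 3. The other pathway genes higher after Si-FIBP#1 ranged from 2 (without Scramble or Si-FIBP#1 replicate 2; 3 without Si-FIBP#1 replicate 1 or 3) to 6, and those higher after Si-FIBP#2 from 1 (without Scramble replicate 2 or 3 or Si-FIBP#2 replicate 1 or 3) to 3. The main fit did not pair samples by number, and the labels do not say whether same-numbered samples were handled together. Deviations from the group means correlated at -0.06 to 0.10 between same-numbered samples and at -0.14 to 0.05 between different-numbered ones. With the replicate number as a block, 6 members were higher and 10 lower after Si-FIBP#1, and 6 were higher and 7 lower after Si-FIBP#2. With 3 samples a group and a median standard error of 0.07 over the members, a member that did not pass is not shown to be unchanged.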

Other observations

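Within PSMG1 the transcripts did not fall alike, as descriptions with no test that were chosen after their values were seen. The protein-coding ENST00000380900 was at 10.4, 10.3 and 11.6 FPKM in Scramble, at 2.36, 4.79 and 3.93 FPKM after Si-FIBP#1 and at 5.91, 7.25 and 6.97 FPKM after Si-FIBP#2, and the protein-coding ENST00000331573 was at 19.2 ± 2.11, 12.8 ± 0.87 and 14.5 ± 0.48 FPKM (SD, n = 3). Both were lower in every depleted sample than in every Scramble sample. ENST00000431628, annotated as a target of nonsense-mediated decay, was at 9.73 ± 3.81, 7.76 ± 3.14 and 9.72 ± 2.48 FPKM, with overlapping groups. Whether the transcripts differed from each other in their change was not tested.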
